A study of Mus musculus with 4 samples.

Results

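The cytosolic ribosomal proteins were followed as mRNAs in 3D-cultured mouse mammary cells. Members were chosen by gene symbol: a row of the deposited expression table entered if its symbol was a cytosolic Rpl or Rps name, Rplp0 to Rplp2 or Rpsa and its FPKM was above 0 in all 4 libraries, and the kinases of S6 were left out. Of 54446 rows, 89 had such a symbol and 87 were kept, 51 of the large and 36 of the small subunit. The 2 left out were Rpl10l, listed at 0 in every library, and Rpl39l, listed at 0 in the basal DMSO library and at 0.237, 0.311 and 0.350 FPKM in the others. By gene type, 6 of the 87 were annotated pseudogenes (Rps4l, Rps3a2, Rps3a3, Rpl6l, Rpl32l and Rps12l1). The rest were split by a list of paralog symbols into 77 ribosomal protein genes (46 large, 31 small) and 4 paralogs (Rpl3l, Rpl7l1, Rpl22l1 and Rps27l).

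The study sequenced mRNA from wild-type C57BL/6 mammary cells that had been sorted, embedded in Matrigel and grown with DMSO, the solvent control, or with 100 μM baicalin, a flavonoid glycoside from the root of Scutellaria. Each combination of cell label and treatment gave 1 library: basal DMSO, basal baicalin, luminal DMSO and luminal baicalin. All 4 groups shared the culture medium, which was renewed daily, and no ovarian hormone was listed for it. The labels state neither the age nor the number of mice pooled nor the time at which RNA was taken. Values were FPKM, which set fragments against exon length and library depth. The exon length is that of all annotated exons of a gene joined, so the order of levels between genes depends on that annotation. With 1 library per group no test between groups was possible, and a difference between groups cannot be told apart from a difference between cultures or library preparations.

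Between 19356083 and 20648729 counted fragments lay behind each library, recovered from the step size of low FPKM values. Intervals on a ratio of FPKM are exact 95% Clopper-Pearson intervals on those fragments and cover counting error only. The basal and luminal marker lists went against the cell labels. The 12 basal markers summed to 2244 and 774 FPKM in the libraries labelled basal and to 6075 and 6474 FPKM in those labelled luminal, while the 10 luminal markers summed to 4413 and 3060 FPKM against 1271 and 1075 FPKM, and no marker of either list was at 0. Acta2, smooth muscle actin of myoepithelial cells, stood at 7.66 and 3.49 FPKM in the basal DMSO and basal baicalin libraries and at 555 and 417 FPKM in the luminal DMSO and luminal baicalin libraries. In either treatment 11 of the 12 basal markers were higher in the luminal library, and all 10 luminal markers were lower there. Of all genes, 52.5% were higher there with DMSO and 45.2% with baicalin. The basal marker that went with the labels was Itgb1, at 348, 243, 207 and 232 FPKM in the same order of libraries. The 8 markers of hormone-sensing luminal cells were mixed: they summed to 125, 188, 68.7 and 123 FPKM in the basal DMSO, basal baicalin, luminal DMSO and luminal baicalin libraries, and with DMSO 4 were higher and 3 lower in the luminal library and Tnfsf11 was at 0 in both, among the higher ones Foxa1 at 1.802 and 9.30 FPKM and Pgr at 1.08 and 4.81 FPKM. The words basal and luminal below name libraries by their labels only.

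Every cytosolic ribosome holds a large and a small subunit, each a scaffold of ribosomal RNA with a fixed set of proteins, most of them present once. Cells therefore make these proteins in near-equal amounts from many unlinked genes, and part of the matching is done by translation: the mRNAs begin with a 5′ terminal oligopyrimidine (TOP) tract, a C followed by a run of C and T, through which mTOR and LARP1 switch their translation and protect their stability. A growing or milk-secreting mammary epithelium depends on that supply of ribosomes. mRNA levels, measured here, are only a part of that control.

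The start sites were read first, since the TOP tract is the feature that defines the family's mRNAs. Of the 87 members, 62 had an entry in the RefSeq promoter table (GRCm38.p6), which holds 300 bases around each annotated start. A C followed by at least 4 C or T was matched from the annotated start on in 14 of the 62 (22.6%), against 3.01% of all 27025 symbols in the table. The base before the match was left free, so a match can begin inside a longer pyrimidine run. A match within 5 bases of the start was found in 30 of the 62 (48.4%), against 21.2% of all symbols. The sequence CCGGAAG, searched on both strands, occurred in the 300 bases of 25 of the 62 (40.3%) and of 9.93% of all symbols. For expressed genes the background differed: among the 11489 other genes with an entry and above 0 FPKM in all 4 libraries, 2.99% had the tract at the start, 23.6% within 5 bases and 18.4% CCGGAAG, and of 83 ribosome biogenesis genes 43.4% held CCGGAAG. These matches depend on where the annotation places the start, which was not measured here. The windows below run from 10 bases before the annotated start to 20 bases from it, 5′ to 3′ on the gene's strand. The matched part of the pyrimidine tract is in capitals. The first set shows matches from the annotated start on. In each of them the base before the capitals is also C or T, so the pyrimidine run itself begins upstream of the annotated start.
Rps6 (chr4:86857348-86857377, minus strand): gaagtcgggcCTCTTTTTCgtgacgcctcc
Rps18 (chr17:33955646-33955675, minus strand): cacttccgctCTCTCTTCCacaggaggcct
Rps27 (chr3:90213629-90213658, minus strand): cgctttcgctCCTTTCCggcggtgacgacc
Rpl28 (chr7:4792955-4792984, plus strand): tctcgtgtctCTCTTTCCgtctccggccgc
Rpl35 (chr2:39005112-39005141, minus strand): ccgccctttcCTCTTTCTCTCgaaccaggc
Rplp2 (chr7:141447641-141447670, plus strand): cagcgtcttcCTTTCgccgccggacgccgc
Another set holds members that the results below turn on. Their match lay a few bases from the annotated start, or was absent from the 5 bases on each side of it.
Rpl12 (chr2:32961702-32961731, plus strand): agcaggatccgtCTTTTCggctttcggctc
Rps26 (chr10:128626487-128626516, minus strand): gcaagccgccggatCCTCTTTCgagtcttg
Rpl7a (chr2:26910797-26910826, plus strand): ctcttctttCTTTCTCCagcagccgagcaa
Rps19 (chr7:24884582-24884611, plus strand): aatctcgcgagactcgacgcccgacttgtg
The last set holds paralogs, which did not share the family's pattern of levels.
Rpl22l1 (chr3:28805498-28805527, plus strand): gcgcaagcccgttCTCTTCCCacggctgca
Rps27l (chr9:66946076-66946105, plus strand): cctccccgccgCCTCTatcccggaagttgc
Rpl7l1 (chr17:46782637-46782666, minus strand): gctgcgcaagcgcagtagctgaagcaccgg

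Ribosomal protein mRNAs were abundant in all 4 libraries and lowest in the basal DMSO library. The 87 members summed to 23966 FPKM there, against 32289 FPKM in the basal baicalin, 34611.5 FPKM in the luminal DMSO and 33237 FPKM in the luminal baicalin library. As a share of all FPKM these sums were 8.71%, 11.5%, 11.7% and 11.2%, and as a share of counted fragments 4.06%, 5.51%, 5.85% and 5.64%. Of the 87 members, 75 had their lowest value in the basal DMSO library (86.2%), where 24.2% of all 17787 genes above 0 in every library had theirs. Among the 77 ribosomal protein genes it was 73. The 12 exceptions were the ribosomal protein genes Rps2, Rpl7a, Rpl17 and Rpl24, all 4 paralogs, and the pseudogenes Rps4l, Rps3a3, Rpl32l and Rpl6l. With near-identical copies (defined below) added, Rpl17 and Rpl24 were also lowest in the basal DMSO library, at 415 and 6.06 FPKM. Rps2 and Rpl7a were not. Rpl24 itself rested on 34 to 47 fragments in a library. The luminal DMSO library held the highest value of 49 members (56.3%) and the basal baicalin library that of 23 (26.4%). Over all 17787 genes these shares were 30.02% and 30.24%. Only the luminal DMSO library thus held the highest value of a larger share of members than of all genes.

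**Figure D1:**
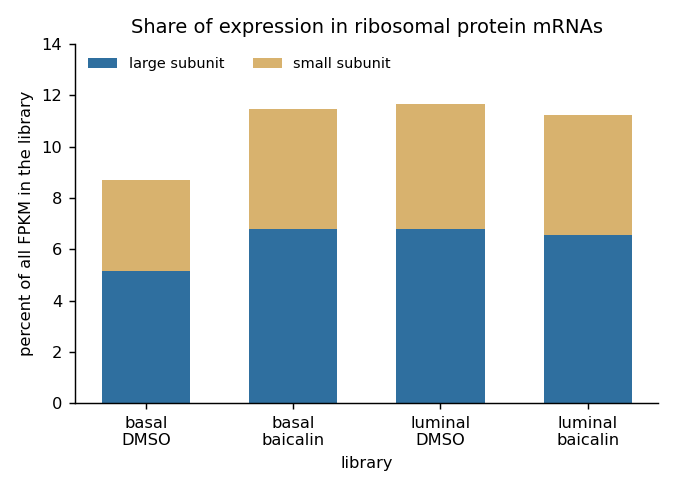
Percent of all FPKM in each library (vertical axis, from 0) that fell on the 51 large subunit members (blue) and the 36 small subunit members (yellow), 1 bar per library. The basal DMSO bar reaches 8.71% and the other 3 bars lie between 11.2% and 11.7%.

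Levels differed far more between members than between libraries. The mean over the 4 libraries ran from 0.068 FPKM for Rpl3l to 1396 FPKM for Rps3a1, with a median of 273 FPKM. Rps3a1, a protein of the small subunit close to the mRNA exit, stood highest at 1057, 1418, 1591 and 1519 FPKM in the basal DMSO, basal baicalin, luminal DMSO and luminal baicalin libraries, the order used for all values below. Rplp1 and Rplp0, which with Rplp2 form the stalk that recruits elongation factors, followed, with 1086, 1304, 1393 and 1446 FPKM for Rplp1 and 975, 1381, 1357 and 1340.45 FPKM for Rplp0. Their partner Rplp2 was lower per exon length, at 141, 173, 175 and 175 FPKM, but its annotated exons span 2072 bases against 499 for Rplp1, for coding lengths of 345 and 342 bases, and in the basal DMSO library 5789 fragments lay on Rplp2 and 10756 on Rplp1. The same holds for Rps24, with 21009 fragments over 6256 exon bases and 169 FPKM there, beside Rps3a1 with 20500 fragments over 977 bases. In each of the 3 stalk genes the basal DMSO value was the lowest and the other 3 lay close together. Rps15, of the small subunit head, was next at 807, 1055, 1387 and 1274 FPKM, and Rpl4, which lines the exit tunnel of the large subunit, stood at 775, 1159, 1183 and 1173 FPKM.

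**Figure D2:**
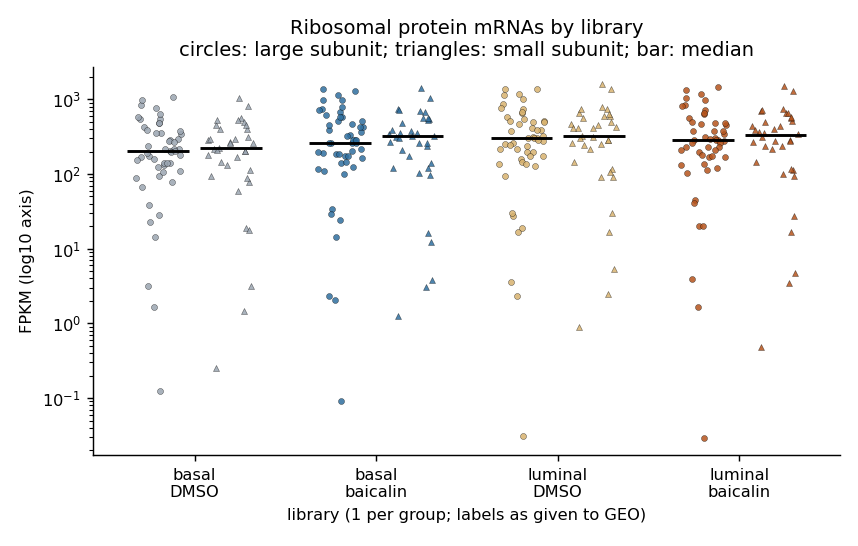
FPKM (vertical log10 axis) of the 87 members in each of the 4 libraries, with large subunit members as circles, small subunit members as triangles and a bar at each median. The median of all members was 207 FPKM in the basal DMSO library and between 284 and 307 FPKM in the other 3.

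Baicalin in the basal libraries was compared first, by the change log2((FPKM + 1)/(FPKM + 1)), baicalin over DMSO. Nearly all members were higher with baicalin, by a similar and modest amount. The median change was 0.41, a ratio of 1.33, against 0.01 over all genes, and 79 of 87 members were higher, where 50.9% of all genes were. A change above 0.5 was seen in 32 members, with 9.71% of all genes above it, and in none was the change below −0.5, with 9.54% of all genes there. No member changed by more than 1 in either direction, which 5.48% of all genes did. The counting interval of the ratio lay above 1 in 76 members, below 1 in 3 and included 1 in 8. Among the 77 ribosomal protein genes the median was 0.43, the SD over genes 0.18 and 76 were higher.

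Among members of at least 5 FPKM the widest differences were in genes of both subunits. Below that level the pseudogene Rps12l1, from 2 and 10 fragments, and Rps10, at 1.48 and 3.09 FPKM, had changes of 0.84 and 0.72. Rps14, a protein of the small subunit platform, stood at 317 FPKM with DMSO and 545 FPKM with baicalin, which makes a ratio of 1.72 with an interval of 1.69 to 1.75. Rps19, whose human counterpart is the gene most often mutated in Diamond-Blackfan anaemia, stood at 60.0 and 104 FPKM, a ratio of 1.73 (1.67 to 1.78). Rpl17, which lines the exit tunnel together with Rpl4, stood at 349 and 585 FPKM and Rpl12, at the base of the stalk, at 219 and 365 FPKM, with ratios of 1.68 (1.64 to 1.72) and 1.67 (1.64 to 1.70). In the luminal libraries the values of Rps14, Rps19 and Rpl12 lay below their basal baicalin values, at 493 and 507, 89.9 and 98.8, and 318 and 343 FPKM. At the low end was Rps2, a protein of the mRNA entry site, at 562 and 559 FPKM with a ratio of 0.995 (0.976 to 1.01). Rpl13a was near it at 14.2 and 14.4 FPKM. Below 0 lay paralogs and pseudogenes: Rps4l at 17.6 and 12.4 FPKM (change −0.48), Rpl22l1 at 39.0 and 29.0 FPKM (−0.41), Rpl7l1 at 27.9 and 24.1 FPKM (−0.20) and Rps3a3 at 18.8 and 16.4 FPKM (−0.19).

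Baicalin in the luminal libraries gave no such shift. The median change was −0.04 against −0.02 over all genes, with 25 members higher and 62 lower, where 45.6% of all genes were higher. A single member was above 0.5 (all genes 8.01%), 2 were below −0.5 (8.29%) and none was past 1 (3.95%). Intervals lay above 1 in 20 members, below 1 in 39 and included 1 in 28, so that at this depth differences of a few percent passed counting error in both directions. The member above 0.5 was Rpl21, at 27.4 FPKM with DMSO and 45.2 FPKM with baicalin, a ratio of 1.65 (1.56 to 1.75). With near-identical copies added, its change was 0.20 instead of 0.70. Both members below −0.5 belong to the large subunit: Rpl17 at 550.0 and 310 FPKM, a ratio of 0.564 (0.549 to 0.579), and Rpl7a at 384 and 227 FPKM, a ratio of 0.592 (0.576 to 0.608). Next were Rps26, which touches the mRNA upstream of the start codon, at 422 and 348 FPKM (0.824, 0.803 to 0.845) and the pseudogene Rpl6l at 137 and 114 FPKM. On the high side, Rpl22l1 stood at 30.2 and 40.4 FPKM, Rpl13a at 16.9 and 20.2 FPKM and Rpl29 at 160 and 182 FPKM.

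The libraries labelled luminal and basal were then compared within each treatment. With DMSO, the luminal library was higher in 82 of 87 members (all genes 52.5%) and in 77 of 77 ribosomal protein genes, with a median change of 0.52 against 0.01 over all genes. Of the members, 48 were above 0.5 (14.2% of all genes), 1 was below −0.5 (12.3%) and none was past 1 (8.56%). Rps27, a zinc-binding protein of the small subunit, differed most, at 218 FPKM in the basal and 418 FPKM in the luminal library, a ratio of 1.92 (1.85 to 1.99). Rps15 stood at 807 and 1387 FPKM and Rpl37a at 141 and 239 FPKM. The 4 lowest among members of at least 5 FPKM were Rpl7l1 (27.9 and 18.9 FPKM), Rpl22l1 (39.0 and 30.2 FPKM), Rps27l (113 and 91.3 FPKM) and Rps3a3 (18.8 and 16.8 FPKM), none of them a ribosomal protein gene of the core set. This comparison shares the basal DMSO library with the basal baicalin comparison, so both read the same low library.

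With baicalin, the luminal and basal libraries were close. The median was 0.05 against −0.03 over all genes, but −0.02 with the values scaled to TPM, so its sign depends on the scaling, and 52 members were higher (all genes 45.2%). Above 0.5 were 2 members (12.6%), below −0.5 were 3 (12.2%), and the only one past 1 was the pseudogene Rps4l at 12.4 and 27.7 FPKM (8.23% of all genes were past 1). The 3 below −0.5 were Rpl17 at 585 and 310 FPKM, Rps27l at 141 and 94.8 FPKM, and Rps12l1, which was near the floor at 1.24 and 0.486 FPKM. Rpl32l, the other member above 0.5, was also low at 2.35 and 3.88 FPKM. Rps27a, a fusion of ubiquitin with a small subunit protein, was lower in the luminal library at 324 and 273 FPKM. With near-identical copies added, Rpl17 changed by −0.48 instead of −0.91 in this comparison, and Rps27a by −0.05 instead of −0.25.

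**Figure D3:**
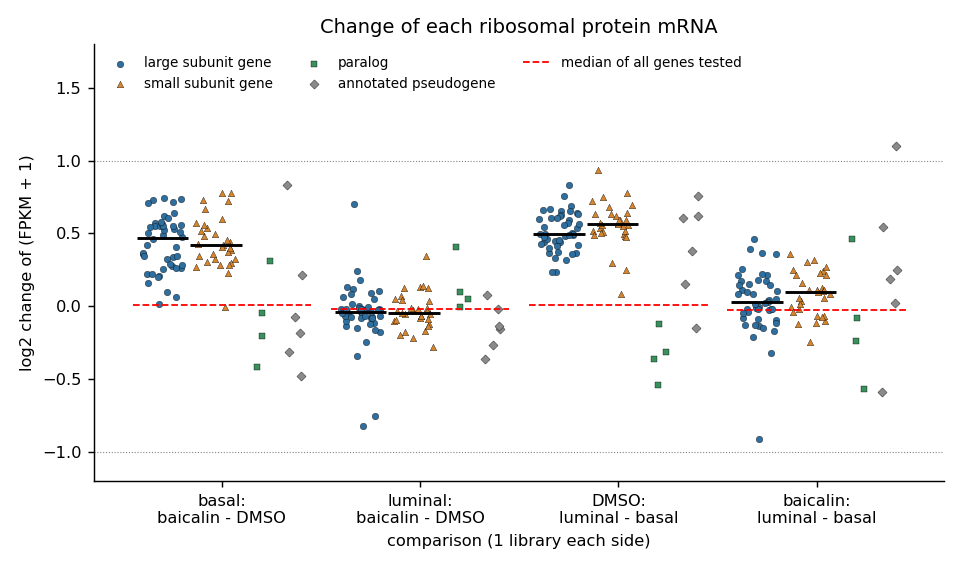
Log2 change of (FPKM + 1) (vertical axis) of each member in the 4 comparisons, split into large subunit genes, small subunit genes, paralogs and annotated pseudogenes, with a black bar at the median of each subunit and a red dashed line at the median of all genes. The bars of large and small subunit genes lie at 0.47 and 0.42 in the basal baicalin and at −0.04 and −0.04 in the luminal baicalin comparison. With DMSO, luminal over basal, they lie at 0.49 and 0.56, and with baicalin at 0.03 and 0.10.

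Large and small subunits had like changes. In the basal baicalin comparison the median change was 0.41 for the 51 large and 0.40 for the 36 small subunit members, and in the luminal baicalin comparison −0.02 and −0.05. With DMSO, luminal over basal, the medians were 0.49 and 0.57, and with baicalin 0.03 and 0.09. The summed FPKM of the large subunit was 1.45, 1.46, 1.39 and 1.40 times that of the small subunit across the 4 libraries, a little lower in both luminal libraries. Basal baicalin over basal DMSO, the large subunit sum was 1.35 and the small subunit sum 1.34 times higher. The number of genes per subunit enters these sums, so the ratio is not one of proteins per ribosome.

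Other abundant mRNAs were set beside the members. The 259 other coding genes with a mean of at least 100 FPKM, a set chosen after the values were seen, had medians of −0.13 in the basal baicalin, 0.08 in the luminal baicalin, −0.13 in the DMSO and 0.03 in the baicalin comparison. Ribosomal protein mRNAs are short, so the 118 of these genes with a coding length of at most 900 bases were also taken, and their medians were −0.16, 0.06, −0.00 and 0.08. Within the 77 ribosomal protein genes, the change had Spearman correlations between −0.20 and 0.16 with exon length, coding length and mean level over all 4 comparisons, a description over genes that share the same 4 libraries. Genes with and without a tract near the start had like changes. Of the 57 ribosomal protein genes with a promoter entry, the 27 with a tract within 5 bases of the annotated start had a basal baicalin median of 0.43 and the 30 without had 0.44. With DMSO, luminal over basal, these medians were 0.50 and 0.55.

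Other quantities also differed between the libraries. Transcripts of the mitochondrial genome took 7.68%, 6.65%, 10.6% and 9.16% of all FPKM in the 4 libraries. Between basal DMSO and basal baicalin, the basal marker sum was 2244 and 774 FPKM and the luminal marker sum 4413 and 3060 FPKM. The 7 immune markers summed to 16.4 and 53.6 FPKM but did not move together. Cd68 was at 7.49 and 51.5 FPKM and Lyz2 at 8.84 and 2.17 FPKM, with Ptprc, Cd3e, Adgre1 and Itgam at 0 in the basal baicalin library. Sums of the 6 fibroblast, 4 endothelial and 3 erythroid markers stayed between 2.60 and 10.4, 0.848 and 3.19, and 0.041 and 0.151 FPKM in all libraries. The part of these in the ribosomal protein values was not tested. In such bulk samples, fewer cells with many ribosomal protein mRNAs and less of that mRNA per cell cannot be told apart.

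Rpl5, Rpl11, Rps6 and Rpsa, which have known roles outside the ribosome or in its regulation, were among the 75 members lowest in the basal DMSO library. Rpl5 and Rpl11, which with 5S ribosomal RNA can bind and hold Mdm2, stood at 214, 327, 299 and 295 FPKM and at 171, 191, 251 and 228 FPKM. Baicalin over DMSO in the basal libraries, Rpl5 had a ratio of 1.52 (1.49 to 1.55) and Rpl11 of 1.12 (1.08 to 1.15), so these partners differed in size though not in direction. Rps6, the substrate of the S6 kinases, stood at 500.1, 685, 732 and 651 FPKM. Rpsa, also known as a laminin receptor, stood at 459, 560.1, 639 and 582 FPKM. In Rps6, Rpsa and Rpl11 the luminal DMSO value was the highest, and in Rpl5 the basal baicalin value.

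Paralogs had another order of levels than their partners. Rpl22, an RNA-binding protein of the large subunit, was at 78.6, 123, 128 and 121 FPKM, while its paralog Rpl22l1 was at 39.0, 29.0, 30.2 and 40.4 FPKM. Rpl22l1 was thus lower with baicalin in the basal libraries, with a ratio of 0.744 (0.689 to 0.804), and higher in the luminal libraries, at 1.34 (1.24 to 1.44), and its basal DMSO and luminal baicalin values lay together above the others. Rps27 and Rps27l, the latter a known p53 target, went apart by label: Rps27 was at 218, 313, 418 and 364 FPKM, and Rps27l at 113, 141, 91.3 and 94.8 FPKM, lower in both luminal libraries. Rpl7 was at 393, 459, 519 and 493 FPKM, and Rpl7l1, a nucleolar relative, at 27.9, 24.1, 18.9 and 20.3 FPKM. Rpl3l, which replaces Rpl3 in striated muscle, was between 0.030 and 0.123 FPKM, against 346 to 512 FPKM for Rpl3. Rpl39, whose paralog Rpl39l was at 0 in the basal DMSO library, was at 154, 199, 217 and 211 FPKM. Rps4x was at 523, 694, 789 and 752 FPKM and the pseudogene Rps4l at 17.6, 12.4, 30.5 and 27.7 FPKM.

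**Figure D4:**
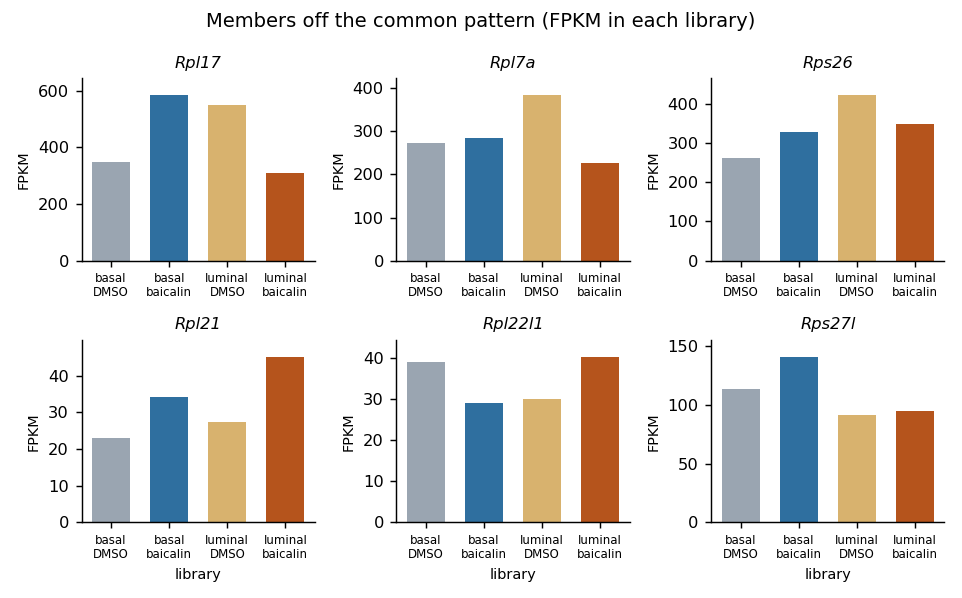
FPKM (vertical axes from 0, each with its own scale) in the 4 libraries for 6 members off the common pattern, 1 bar per library. Near-identical copies are not added to these values. Rpl17 and Rpl7a are lowest in the luminal baicalin library (310 and 227 FPKM), Rpl21 is highest there (45.2 FPKM), Rpl22l1 is highest in the basal DMSO and luminal baicalin libraries (39.0 and 40.4 FPKM), and Rps27l is lower in both luminal libraries.

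Members under 5 FPKM in a library were 6 in number, among them the ribosomal protein genes Rps10 and Rpl24, at 1.48, 3.09, 2.50 and 3.46 FPKM and at 1.66, 2.06, 2.36 and 1.65 FPKM. Both proteins are part of every ribosome, and most fragments of their families lay on near-identical copies elsewhere in the genome, 93.98% to 96.0% for Rps10 and 72.6% to 84.1% for Rpl24. Exons of Rps10 also overlap RPS10-NUDT3 over 475 bases and those of Rpl24 overlap Gm28037 over 484 bases on the same strand, and the part of this in their low values was not tested. Rps10-ps2 alone stood at 161, 277, 215 and 242 FPKM. Rpl21 was alike, with 61.5% to 73.6% on its 61 copies. How fragments that match several places were counted is not given in the sources used here. The other members under 5 FPKM were the pseudogenes Rpl32l, Rps12l1 and Rps3a2 and the paralog Rpl3l.

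Near-identical copies were common but small in sum. They were other genes whose transcript matched a member's over at least 200 bases, or 50% of its length, at 95% identity or more. Taking each pseudogene member with its parent, 75 of 81 genes had at least 1 copy, the median number was 5, and all 619 copies held 5.95%, 6.48%, 5.83% and 6.33% of the fragments of genes and copies together. In 49 of the 81 genes the copies held under 5% in every library. The 110 copies with at least 5 FPKM in a library had median changes of 0.59, 0.08, 0.46 and −0.02 in the 4 comparisons, and 102 of them were higher in the basal baicalin comparison (all genes 50.9%). Adding the copies to each gene left the medians of the members near the same values.

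For some members named above, fragments were counted on a near-identical copy. Whether these came from the copy or from the member was not tested. Rps26 lies at chr10:128624534-128626747 and its copy Rps26-ps1, a transcribed processed pseudogene, at chr8:107439131-107439579, and over 429 aligned bases of transcript they were 99.1% identical with 4 differences, 2 of them in the coding sequence of Rps26. The second coding difference (G539A, counted from the first base of the Rps26 transcript, Rps26 base first) is shown to make plain how few fragments can separate the pair, with the differing base in capitals in bases 525 to 554 of the Rps26 transcript and 273 to 302 of the copy.
Rps26: aatcgatcccgcgaGgcccggaaggaccga
Rps26-ps1: aatcgatcccgcgaAgcccggaaggaccga
Rps26-ps1 stood at 6.73, 62.5, 6.56 and 128 FPKM, from 60, 569, 57 and 1190 fragments, low in both DMSO and high in both baicalin libraries. Its ratio was 9.28 (7.11 to 12.3) in the basal and 19.6 (15.0 to 25.999) in the luminal comparison, while Rps26 itself stood at 261, 327, 422 and 348 FPKM. With its copies added, the luminal change of Rps26 went from −0.28 to −0.14.

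Fragments were also counted on copies of Rpl17. Its copy Rpl17-ps10, at chr7:72648757-72649311 and 99.3% identical over 555 bases, stood at 79.6, 149.9, 265 and 371 FPKM, and copies together held 15.9%, 19.1%, 21.4% and 40.0% of the fragments of the family. Summed with its copies, Rpl17 changed by −0.44 in the luminal baicalin comparison, where the gene alone gave −0.82. For Rpl7a the copies held 4.50% to 10.9%, and the change with copies was −0.65 against −0.75 without. Rps27a-ps2 stood at 49.8, 87.8, 205 and 256 FPKM beside 258, 324, 318 and 273 FPKM for Rps27a, and Rps27rt, an annotated coding copy of Rps27, at 33.5, 70.8, 40.2 and 106 FPKM. Exons of 27 members overlap another gene on the same strand, the longest stretches being 779 bases in Rpl13a (Gm45713, Mir5121 and Snord33), 484 in Rpl24 and 475 in Rps10, and 20 overlap a gene on the opposite strand, and which strand the counting read is not stated in the sources used here.

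**Figure D5:**
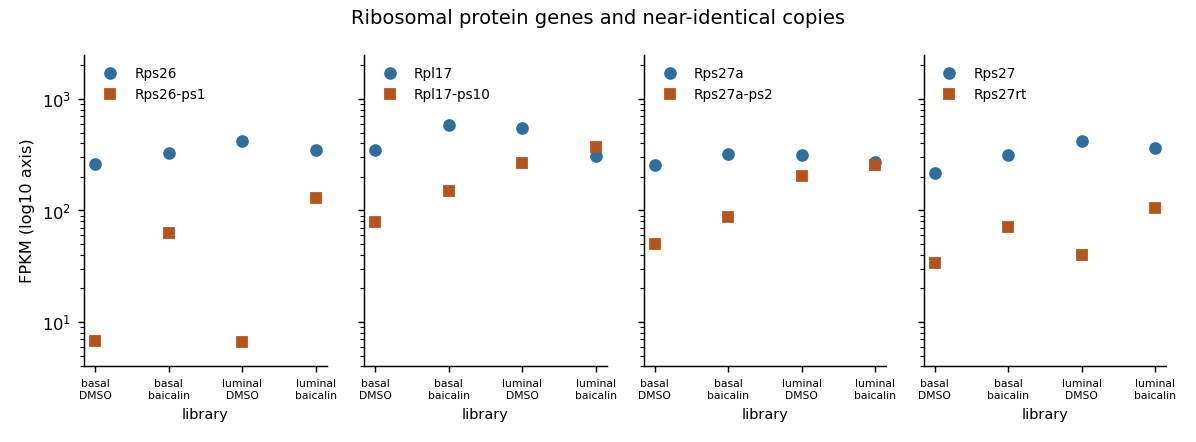
FPKM (vertical log10 axis) in the 4 libraries for 4 ribosomal protein genes (blue circles) and a near-identical copy of each (orange squares). Rps26-ps1 lies at 6.73 and 6.56 FPKM in the DMSO libraries and at 62.5 and 128 FPKM in the baicalin libraries, and Rpl17-ps10 passes Rpl17 in the luminal baicalin library (371 against 310 FPKM).

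Ribosomal proteins under other gene names followed the members. Fau, a ubiquitin-like fusion that yields Rps30, stood at 195, 289.7, 287 and 299 FPKM, with a basal baicalin ratio of 1.48 (1.42 to 1.55). Rack1, a scaffold on the small subunit, stood at 166, 247, 243 and 251 FPKM, a ratio of 1.49 (1.46 to 1.51). Rpl36al was low, at 0.223, 0.729, 0.496 and 0.823 FPKM.

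Ribosome assembly genes, which make and shape the subunits in the nucleolus, were mostly lower where the ribosomal proteins were higher. They were also mostly lower in the luminal library with baicalin, where the ribosomal proteins hardly differed. Of 99 ribosome biogenesis genes, 32 were higher (all genes 50.9%) and 67 lower in the basal baicalin comparison, none by more than 1 (5.48%), with a median of −0.12. In the luminal baicalin comparison 56 were higher (median 0.03, all genes 45.6%). With DMSO 16 were higher in the luminal library (median −0.32, all genes 52.5%) and with baicalin 18 (median −0.17, all genes 45.2%). At the ends were Dkc1, the pseudouridine synthase of small nucleolar RNPs, at 21.8, 13.9, 17.0 and 14.3 FPKM, and Nsa2, a large subunit assembly factor, at 38.0, 52.8, 49.5 and 45.1 FPKM. Fbl, the rRNA methyltransferase, stood at 31.9, 22.7, 39.5 and 29.5 FPKM and Sbds, which acts late on the large subunit, at 43.5, 58.7, 32.0 and 34.0 FPKM. The 20 genes of RNA polymerase I and its factors had medians of −0.07, −0.14, −0.08 and −0.07, with 6, 9, 9 and 8 higher (all genes 50.9%, 45.6%, 52.5% and 45.2%). Ubtf, the factor that opens rDNA, stood at 29.3, 22.4, 36.7 and 25.96 FPKM, and Polr2k, a subunit shared by the polymerases, at 39.7, 25.7, 33.0 and 29.5 FPKM.

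Translation factors and other mRNAs known for a TOP tract were split. Of 12 translation elongation genes above 0, 6 were higher (all genes 50.9%) and 6 lower in the basal baicalin comparison, with a median of 0.00, and medians of 0.03, 0.03 and 0.01 in the others. The 2 highest were Eef2, the translocation factor, at 865, 1435, 1281 and 1390.2 FPKM, and Eef1b2, of the exchange factor for eEF1A, at 187, 256, 252 and 271 FPKM, and the 2 lowest were Gspt1 at 44.6, 32.1, 34.4 and 32.0 FPKM and Eif5a at 264, 205, 216 and 207 FPKM. Of 20 further genes known for a TOP tract, 14 were higher in the basal baicalin comparison (median 0.20), 6 in the luminal baicalin (−0.09), 16 in the DMSO (0.30) and 8 in the baicalin comparison (−0.01). Over all genes, 50.9%, 45.6%, 52.5% and 45.2% were higher in these comparisons. Gas5 and Snhg8, host genes of small nucleolar RNAs, led with 51.8, 136, 79.3 and 97.7 FPKM and 23.7, 49.9, 43.9 and 49.5 FPKM, while Nap1l1 stood at 82.6, 60.6, 75.2 and 60.4 FPKM and Vim at 16.2, 2.37, 69.2 and 40.0 FPKM.

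Genes that act on TOP mRNAs were mixed. Of 28 genes of mTOR and LARP1 control, 17, 19, 10 and 15 were higher in the 4 comparisons, with medians of 0.12, 0.18, −0.09 and 0.01. Over all genes, 50.9%, 45.6%, 52.5% and 45.2% were higher. Sesn2, a leucine sensor that restrains mTORC1, stood at 6.45, 28.1, 10.6 and 26.2 FPKM, and Rragd, a Rag GTPase, at 2.90, 17.3, 1.17 and 6.18 FPKM, both higher in each baicalin library than in its DMSO library. Eif4e, the cap-binding factor, stood at 21.5, 15.7, 20.1 and 16.8 FPKM and Sesn1 at 4.41, 3.05, 7.01 and 5.61 FPKM. Of 8 genes around the 5S RNP and p53, 4, 5, 1 and 2 were higher (medians −0.04, 0.06, −0.30 and −0.24), beside the same shares over all genes. Cdkn1a and Mdm2, both p53 targets, stood at 29.0, 106, 24.7 and 72.7 FPKM and at 27.0, 67.6, 20.5 and 33.0 FPKM, and Cdkn2a and Hexim1 at 5.97, 1.98, 3.22 and 2.93 FPKM and at 18.0, 14.9, 22.6 and 18.9 FPKM.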

How the data were processed

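Libraries were stranded and poly(A)-selected. The authors mapped reads with HISAT2 to GRCm38 (Ensembl release 94) and deposited FPKM from featureCounts. The submitters' processing notes name Bowtie 0.12.2 and mm8 besides GRCm38. Hormone-treated libraries named in the study were not analysed here.

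FPKM were used as deposited. GENCODE mouse release 21 supplied exon lengths (54409 of 54446 genes), positions and types. Depth was found as the total for which FPKM times exon length gave whole fragments: in genes under 20 fragments and under 1500 exon bases, 99.5% to 99.6% of values were whole within 0.1. Depth, changes and intervals were tested on simulated data. Changes used a pseudocount of 1 FPKM, which understates low genes, on genes above 0 in all 4 libraries, with a threshold of 1 (also 0.5). No test was made, since each group has 1 library. Copies came from blastn 2.17.0, and scripts ran in Python 3.11.15 with scipy 1.17.1, pandas 2.3.3, and matplotlib 3.10.9 for figures.

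Named were the 4 highest and 4 lowest changes per comparison among the members of at least 5 FPKM, the 5 highest levels, all members under 5 FPKM, members with side roles, paralog pairs, copies of named members of at least 5 FPKM (those printed were chosen from these) and the 2 highest and 2 lowest basal changes of each other list. Rps18, Rpl28 and Rpl35 were chosen for their start sequences, after values were seen. The members and lists were chosen with earlier results of these data known. Alternatives were another pseudocount (0.1 FPKM or none), a minimum of 5 FPKM, TPM scaling, centring, a threshold of 0.5, and leaving out or adding copies, paralogs and pseudogenes. Some genes that this rule names are not reported here.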

Additional observations from a re-analysis of the deposited data

Results flagged for a closer look

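Members whose change with baicalin had opposite signs in the basal and luminal libraries were taken out for a closer look where both changes exceeded 0.25 on the log2 scale and the counting intervals of both ratios excluded 1. Rps12l1 had opposite signs too, with 0.84 and −0.36, but stood at 0.253, 1.24, 0.906 and 0.486 FPKM, and its luminal interval included 1. The difference was not tested, since each group has 1 library. Rpl17 changed by 0.74 in the basal and by −0.82 in the luminal libraries. Rpl22l1 changed by −0.41 in the basal and by 0.41 in the luminal libraries. Rps26 changed by 0.33 in the basal and by −0.28 in the luminal libraries. With near-identical copies added, Rpl17 changed by 0.80 and −0.44 and Rpl22l1 by −0.41 and 0.42. Rps26 then changed by 0.39 and −0.14, so its luminal change fell short of 0.25 in size. Copies outside the members were looked at where a copy was higher with baicalin by more than 2. Rps26-ps1, a near-identical copy of Rps26, changed by 3.04 in the basal and by 4.10 in the luminal libraries, from 60 to 569 and from 57 to 1190 fragments.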

How the results depend on the processing

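Each value rests on 1 library, and the basal DMSO library, the lowest for the members, enters both comparisons with a large median. No paired analysis was possible because each group has 1 library. Depth limits the members under 5 FPKM. The medians were the same within their spread with a pseudocount of 0.1 FPKM or none, with a minimum of 5 FPKM and without paralogs, and likewise, in alternatives chosen after seeing the data, without pseudogenes, for members whose copies held under 5% and with copies added. In the order basal baicalin, luminal baicalin, DMSO and baicalin comparison, a threshold of 0.5 instead of 1 gave 32, 1, 48 and 2 members higher and 0, 2, 1 and 3 lower. Without a pseudocount, 2, 0, 1 and 1 members were higher by more than 1 and 0, 0, 1 and 2 lower. Scaled to TPM, the DMSO medians were 0.43 for all, 0.38 for large and 0.47 for small subunit members, and the baicalin medians of all and large members turned to −0.018 and −0.037, as the small difference in total FPKM exceeds them. Centred on all genes, the luminal baicalin medians were −0.016 for all and −0.0031 for large members. The 7 members without a copy (3 large, 4 small) gave basal baicalin medians of 0.29, 0.26 and 0.30 for all, large and small, 0.017 for small members in the luminal baicalin and 0.17 in the baicalin comparison, large to small ratios of 0.997, 0.907, 0.988 and 0.944 in the 4 libraries and 0.468%, 0.584%, 0.602% and 0.607% of all FPKM. With copies added, these ratios were 1.503, 1.52, 1.44 and 1.45 and the shares 9.18%, 12.2%, 12.3% and 11.9%. The cause of the other moves was not tested.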
